A study of Mus musculus with 20 samples.

Results

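The 10 genes described here are Myc and Mycn of the MYC family and the immediate early and feedback genes Fos, Jun, Junb, Egr1, Atf3, Ier2, Btg2 and Nfkbia, picked by symbol out of 55642 genes. They were followed in 20 libraries of bulk RNA-seq from kidney and liver of male DBA/2J mice, an inbred strain. Mice had been injected intraperitoneally every day for 3 weeks with JQ1 at 50 mg/kg or with vehicle. Each organ had 3 JQ1 treatment libraries (taken at the end of dosing, 10 weeks of age), 3 JQ1 recovery libraries (taken after a period without drug, 16 weeks of age) and 4 control libraries, namely 3 vehicle treatment libraries of 10 weeks and 1 vehicle recovery library of 16 weeks. The sources differ on the length of the recovery period and on how the vehicle mice split between the times, and the labels of the samples are followed here. The study gave JQ1 for its action on BRDT, the bromodomain protein of the testis, and kidney and liver served as tissues outside the germ line. All 10 genes had enough reads to be tested in both organs.

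Immediate early genes are switched on within minutes of a stimulus, because their promoters are already open and need no new protein, and their RNAs are short-lived. MYC proteins are transcription factors that raise ribosome production and growth. Fos, Jun, Junb and Atf3 encode bZIP proteins that pair to form AP-1 and related dimers, Egr1 encodes a zinc finger factor, Ier2 a small nuclear protein, and Btg2 and Nfkbia encode brakes on proliferation and on NF-kB.

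Promoter sequence from RefSeq was matched to 7 of the 10 genes (Mycn, Fos, Jun, Junb, Atf3, Btg2 and Nfkbia). Nfkbia is shown because it was the member that changed in kidney on treatment, Fos as the archetype of the family, and Btg2 for its cyclic AMP response element. The 250 bases before each start site are given, with capitals for matches to the TATA box TATAAA, to the cyclic AMP response element TGACGTCA, to the AP-1 motif written TGANTCA, to the CArG box and to the NF-kB site.
Nfkbia, GRCm38.p6 chr12:55492648-55492897, minus strand: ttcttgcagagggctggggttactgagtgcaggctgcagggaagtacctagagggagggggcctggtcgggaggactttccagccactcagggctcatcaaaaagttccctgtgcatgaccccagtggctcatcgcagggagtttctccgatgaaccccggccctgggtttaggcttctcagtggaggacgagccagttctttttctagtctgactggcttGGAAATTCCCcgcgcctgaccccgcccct
Fos, GRCm38.p6 chr12:85473640-85473889, plus strand: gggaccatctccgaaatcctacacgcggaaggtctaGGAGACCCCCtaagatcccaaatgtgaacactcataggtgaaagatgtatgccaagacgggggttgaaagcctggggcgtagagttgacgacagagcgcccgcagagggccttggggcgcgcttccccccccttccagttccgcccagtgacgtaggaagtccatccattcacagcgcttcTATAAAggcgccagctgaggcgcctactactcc
Btg2, GRCm38.p6 chr1:134079156-134079405, minus strand: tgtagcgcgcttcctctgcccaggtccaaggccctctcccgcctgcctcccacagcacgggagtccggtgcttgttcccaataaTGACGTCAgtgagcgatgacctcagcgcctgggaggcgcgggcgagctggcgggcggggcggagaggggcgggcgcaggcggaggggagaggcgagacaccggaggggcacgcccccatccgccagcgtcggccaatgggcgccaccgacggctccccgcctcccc
Searched on both strands, an NF-kB site lay in the windows of Nfkbia and Fos, against 3.9% of 32851 windows of the same length in the table. TATAAA was found in Fos (12.4% of all windows) and TGACGTCA in Btg2 (1.55%). CACGTG, the E-box that MYC and MAX bind, was found in 0 of the 7 windows (6.02% of all). Neither TGANTCA (6.75%) nor the CArG box (1.47%) was found in any of them. GGGCGG was present in 6 of the 7 (32.7%), and CCAAT in Btg2, Jun and Junb (33.8%). None of these last matches overlapped the capitals, and all describe letters only.

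Library totals ran from 13952510 to 26895318 reads in kidney and from 11968500 to 17529910 in liver. The 7 hepatocyte markers summed to 37774 to 102477 CPM (read counts scaled to a common library size) in liver and 536 to 1026 in kidney. Liver JQ1 recovery libraries 2 and 3 held kidney transcripts. Kap, a gene of the kidney proximal tubule, was at 20.4, 3541 and 2138 CPM in liver JQ1 recovery libraries 1, 2 and 3, against 0.171 to 3.02 in liver controls, and libraries 2 and 3 thus had 17.4% and 10.5% of the mean Kap level of kidney JQ1 recovery. In kidney, JQ1 treatment library 1 stood apart, with the fibroblast and mural markers at 899 CPM (158 to 265 in the other 9 libraries) and the leukocyte markers at 372 (54.7 to 93.0), and it had the highest adipocyte sum, 458 CPM (83.2 to 337). The 5 red cell markers summed to 9080 to 12078 CPM in kidney JQ1 treatment libraries, against 4779 to 8246 in kidney controls, and the 6 proximal tubule markers to 15623 to 16738, against 17358 to 26565. Kap made up most of this proximal tubule sum, at 10053 to 10814.5 CPM on treatment against 12850 to 21810 in controls. The rest of that sum went the other way, being higher in every JQ1 treatment library than in any control. In bulk tissue, fewer cells of a type and less RNA per cell cannot be told apart. The part of these differences in the results was not tested, and results resting on the libraries named are also given without them.

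The members spanned a wide range of abundance, as the plot of TPM in control mice shows. On the TPM scale, which corrects for transcript length, Nfkbia was the most abundant in kidney controls with a median of 45.9 TPM (42.2 to 52.95), followed by Jun with 7.96 (6.11 to 12.9) and Junb with 5.63 (5.09 to 6.93). Ier2 had 4.09 (2.92 to 4.50), Egr1 3.01 (1.83 to 3.61) and Btg2 2.30 TPM (2.15 to 2.78). In this order Nfkbia did not overlap with Jun, nor Junb with Ier2, and the other neighbours overlapped. Atf3, Myc, Fos and Mycn were the scarce members, with medians of 0.712, 0.550, 0.508 and 0.454 TPM and overlapping ranges.
In liver controls the order was Nfkbia with 24.7 TPM (21.6 to 27.1), Ier2 with 5.79 (4.08 to 6.4997), Junb with 5.70 (4.05 to 8.57), Egr1 with 2.39 (1.46 to 4.77), Jun with 1.93 (1.07 to 2.46) and Btg2 with 0.664 (0.484 to 1.04). Nfkbia and Ier2 did not overlap there, nor Jun and Btg2, and the other neighbours among these 6 did. The scarce members were again Mycn (0.211), Fos (0.192), Myc (0.173) and Atf3 (0.157). A kidney library held 16 to 63 Myc reads and a liver library 8 to 83, and for Atf3 it was 5 to 43 and 2 to 16, so that modest differences of these genes were not detectable at this depth. Nearly all reads of a member came from a single transcript (Myc-202 held 99.2% of the Myc reads in kidney and 100% in liver), except for Atf3, where Atf3-203 held 78.8% in kidney and 80.2% in liver.

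**Figure D1:**
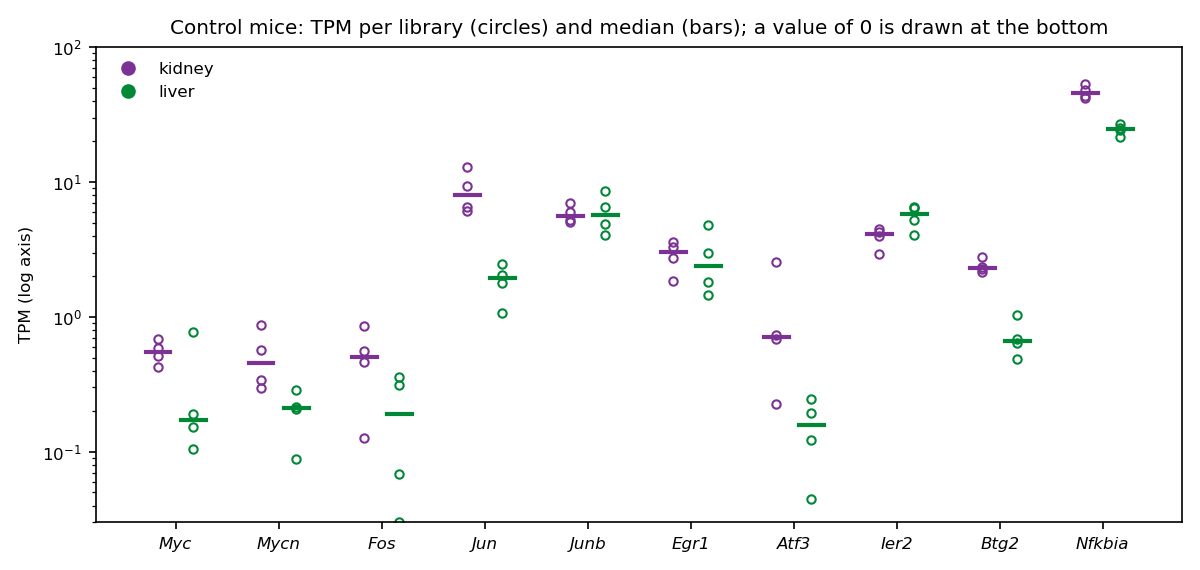
TPM per library (log axis) of the 10 members in control kidney (left of each pair) and control liver (right), 4 libraries each, with bars at the medians. Nfkbia is highest in both organs, and Fos is at 0 in 1 liver library, drawn at the bottom.

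The comparisons of JQ1 treatment and JQ1 recovery with control share the 4 control libraries. In kidney on JQ1 treatment against control, 1 of the 10 was called, Nfkbia, which fell. Over all genes tested 4.13% were called (2.73% lower and 1.4% higher; edgeR quasi-likelihood test, Benjamini-Hochberg adjusted p below 0.05). The libraries of JQ1 treatment and control did not overlap for 2 members, Nfkbia and Myc (15.2% of all genes). The median log2 fold change of the members was -0.03, beside -0.01 over all genes. Against control in JQ1 recovery, 0 members were called by edgeR, beside 1 gene in all (0.00583%), while Atf3 and Junb had an unadjusted p below 0.05 (9.16% of genes did) and DESeq2 also called 0. Between JQ1 treatment and JQ1 recovery 1 member, Ier2, was called, higher on treatment (7.31% of genes were called, 2.41% higher and 4.91% lower), and 4 did not overlap, with Ier2 and Jun above and Nfkbia and Mycn below (27.2% of genes).

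**Figure D2:**
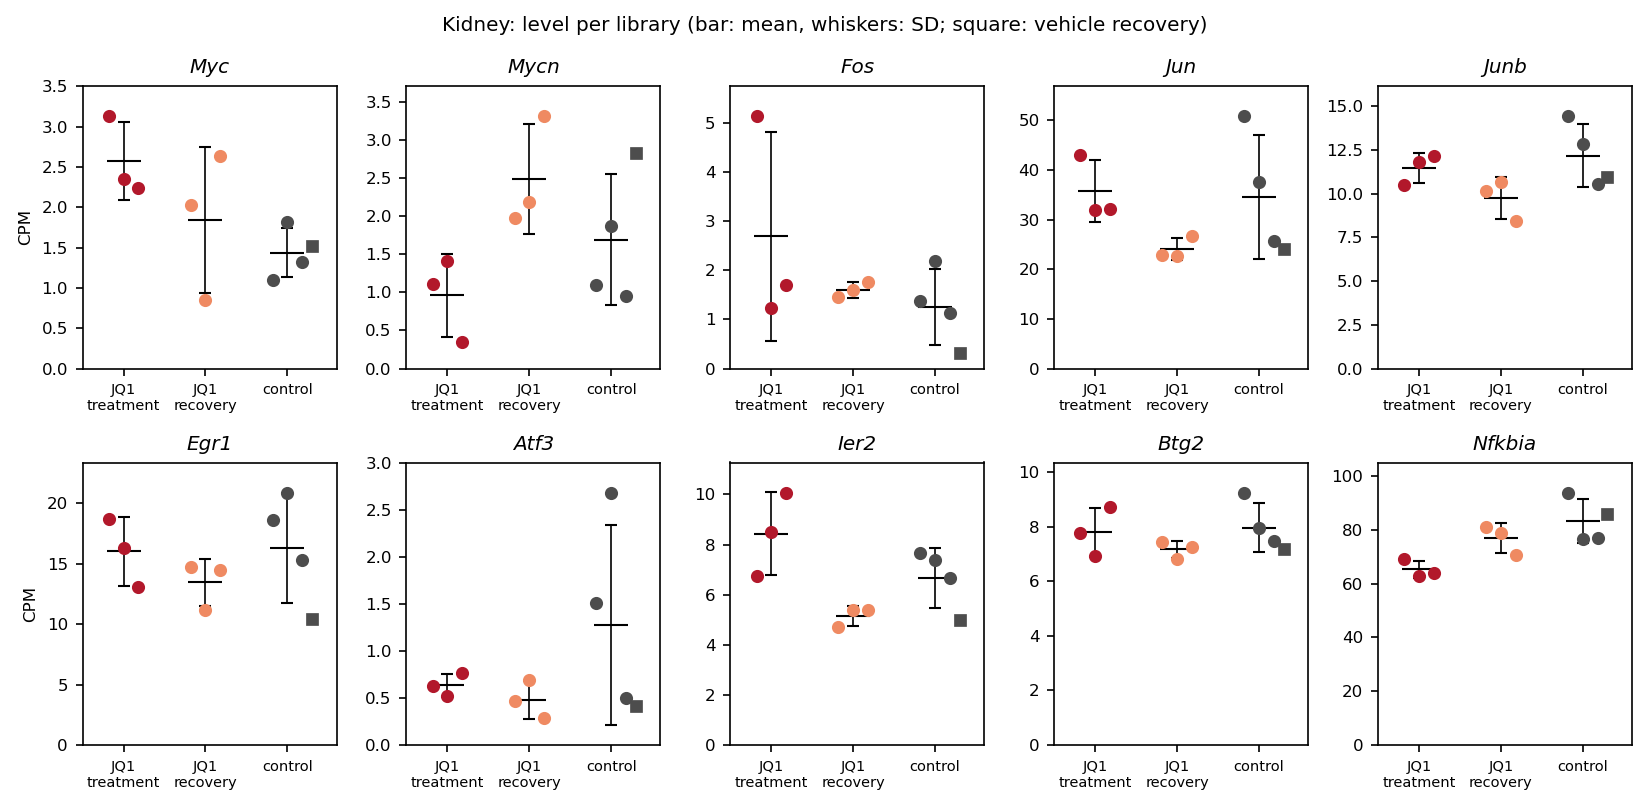
CPM per kidney library of the 10 members in JQ1 treatment, JQ1 recovery and control (squares mark the vehicle recovery library), with the mean and SD. All 3 JQ1 treatment libraries lie below all 4 controls for Nfkbia and above them for Myc.

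Nfkbia encodes IkB alpha, which holds NF-kB in the cytoplasm and is itself an NF-kB target. In kidney it was at 69.1, 63.0 and 63.9 CPM in JQ1 treatment libraries 1 to 3, at 81.1, 79.0 and 70.5 in JQ1 recovery, and at 93.8, 76.5 and 76.9 in vehicle treatment with 85.8 in vehicle recovery. Every JQ1 treatment library was below every JQ1 recovery and control library. The log2 fold change of JQ1 treatment against control was -0.35 ± 0.08 (SE; edgeR adjusted p = 0.0234), a level 0.785 times that of control. With length-scaled counts made from TPM, the kind of count the study used, the call was lost (-0.35, edgeR adjusted p = 0.0655). JQ1 recovery against control gave -0.11 ± 0.08 (edgeR adjusted p = 0.725), and JQ1 treatment against JQ1 recovery -0.24 ± 0.09 (edgeR adjusted p = 0.128). Without JQ1 treatment library 1, the one with high leukocyte and fibroblast markers, the change against control was -0.39 ± 0.09 (edgeR adjusted p = 0.0253). The call was lost without JQ1 treatment library 2 or 3, vehicle treatment library 1 or the vehicle recovery library (adjusted p 0.0535 to 0.103), with the log2 fold change between -0.39 and -0.28 over all 7 libraries left out in turn.

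Ier2 is an immediate early gene whose product shuttles to the nucleus. It was at 6.75, 8.48 and 10.1 CPM in kidney JQ1 treatment libraries, at 4.70, 5.39 and 5.38 in JQ1 recovery, and at 7.66, 7.38 and 6.67 in vehicle treatment with 4.99 in vehicle recovery. JQ1 treatment libraries were all above JQ1 recovery libraries, with a log2 fold change of 0.71 ± 0.19 (edgeR adjusted p = 0.0307), and overlapped with control (0.35 ± 0.18, edgeR adjusted p = 0.344). The single vehicle recovery library was likewise below the 3 vehicle treatment libraries, so JQ1 withdrawal and the later age cannot be told apart here. The Ier2 call was lost on leaving out any 1 of 5 of the 6 libraries (adjusted p 0.0563 to 0.141) and kept without JQ1 treatment library 1 (0.84, adjusted p = 0.0145). It was also lost with length-scaled counts (0.71, adjusted p = 0.0631).

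Myc did not pass in kidney, and its estimate on treatment was positive. It was at 3.13, 2.35 and 2.24 CPM in JQ1 treatment libraries, at 2.03, 0.854 and 2.63 in JQ1 recovery, and at 1.104, 1.81 and 1.32 in vehicle treatment with 1.52 in vehicle recovery. All JQ1 treatment libraries were above all controls, while JQ1 recovery spanned both. The log2 fold change on treatment was 0.83 ± 0.34, which did not pass (edgeR adjusted p = 0.213), and leaving out each library in turn gave 0.67 to 0.95, the lowest without JQ1 treatment library 1. In JQ1 recovery it was 0.35 ± 0.35 (edgeR adjusted p = 0.824).
Mycn, the paralogue best known from embryonic and neural tissue, was at 1.11, 1.42 and 0.353 CPM in kidney JQ1 treatment libraries, at 1.97, 2.19 and 3.32 in JQ1 recovery, and at 1.104, 1.88 and 0.952 in vehicle treatment with 2.84 in vehicle recovery. JQ1 treatment libraries lay below JQ1 recovery ones (-1.34 ± 0.47, edgeR adjusted p = 0.097) and overlapped with control (-0.78 ± 0.45, edgeR adjusted p = 0.414). The vehicle recovery library was again on the side of JQ1 recovery.

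Among the AP-1 genes of kidney none passed against control. Fos, which encodes one side of the AP-1 dimer, was at 5.15, 1.23 and 1.71 CPM in JQ1 treatment libraries, at 1.45, 1.60 and 1.77 in JQ1 recovery, and at 1.38, 2.19 and 1.13 in vehicle treatment with 0.315 in vehicle recovery. Only the library with high leukocyte and fibroblast markers was above the range of the rest, and the log2 fold change of 1.09 ± 0.55 (edgeR adjusted p = 0.354) was 0.24 without it.
Jun, the partner of FOS, was at 43.0, 32.0 and 32.1 CPM in JQ1 treatment libraries, at 22.9, 22.6 and 26.6 in JQ1 recovery, and at 50.8, 37.6 and 25.6 in vehicle treatment with 24.1 in vehicle recovery. JQ1 treatment and control overlapped (0.05 ± 0.26, edgeR adjusted p = 0.948), and JQ1 treatment lay above JQ1 recovery without passing (0.56 ± 0.28, edgeR adjusted p = 0.299969). With only those 2 groups in the fit this last difference passed (0.57 ± 0.13, edgeR adjusted p = 0.0157). The vehicle recovery library was below the 3 vehicle treatment libraries, so that age and withdrawal cannot be told apart for Jun either.
Junb, a JUN family member that often opposes growth, was at 10.5, 11.8 and 12.1 CPM in JQ1 treatment libraries, at 10.2, 10.7 and 8.41 in JQ1 recovery, and at 14.4, 12.8 and 10.5 in vehicle treatment with 10.9 in vehicle recovery. All groups overlapped with control, and JQ1 recovery gave -0.31 ± 0.14 (edgeR adjusted p = 0.508).
Atf3, a stress-induced repressor that pairs with JUN proteins, was at 0.626, 0.523 and 0.765 CPM in JQ1 treatment libraries, at 0.465, 0.694 and 0.286 in JQ1 recovery, and at 1.52, 2.69 and 0.499 in vehicle treatment with 0.420 in vehicle recovery. Its control libraries fell apart into a higher and a lower pair, so the differences of -0.98 ± 0.59 on treatment (edgeR adjusted p = 0.435) and -1.36 ± 0.61 in recovery (edgeR adjusted p = 0.509) shrank to -0.31 and -0.69 without vehicle treatment library 2.

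Egr1, a serum- and growth factor-induced transcription factor, was at 18.7, 16.3 and 13.1 CPM in kidney JQ1 treatment libraries, at 14.7, 11.2 and 14.5 in JQ1 recovery, and at 18.6, 20.9 and 15.3 in vehicle treatment with 10.4 in vehicle recovery. The groups overlapped, with a log2 fold change of -0.02 ± 0.21 on treatment (edgeR adjusted p = 0.977). Btg2, a p53-induced antiproliferative gene, was the steadiest member, at 7.79, 6.91 and 8.71 CPM in JQ1 treatment libraries, at 7.43, 6.83 and 7.26 in JQ1 recovery, and at 9.25, 7.94 and 7.48 in vehicle treatment with 7.20 in vehicle recovery. Its fold change on treatment was -0.03 ± 0.15 on the log2 scale (edgeR adjusted p = 0.947). The highest kidney library for Jun, Junb, Btg2 and Nfkbia alike was vehicle treatment library 1.

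**Figure D3:**
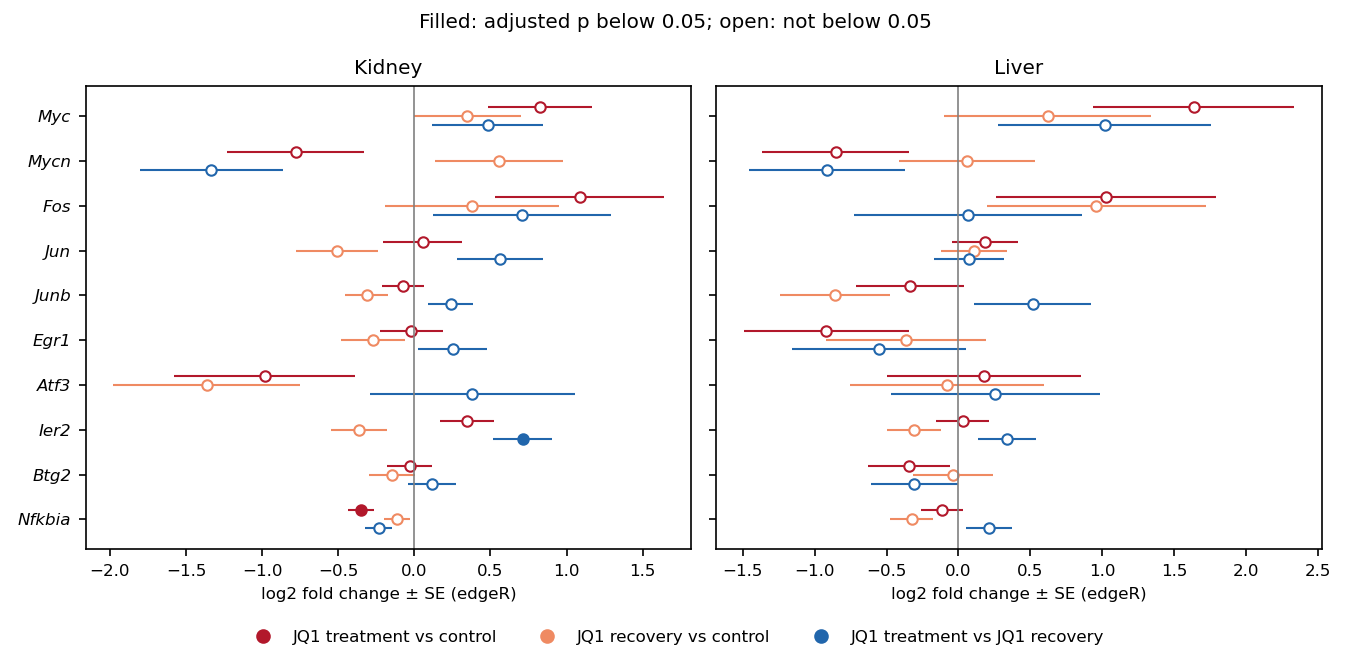
Log2 fold change ± SE (edgeR) of the 10 members in kidney (left) and liver (right) for JQ1 treatment against control, JQ1 recovery against control and JQ1 treatment against JQ1 recovery. Filled circles passed an adjusted p of 0.05, namely Nfkbia (-0.35) and Ier2 (0.71), both in kidney.

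In liver 0 of the 10 members were called in any of the comparisons between groups by edgeR, and 0 by DESeq2. The background was low on treatment against control (0.495% of 14559 genes, 0.268% higher and 0.227% lower) and in recovery against control (0.0343%, 0.0137% higher and 0.0206% lower), and 2.29% between treatment and recovery (1.31% higher and 0.989% lower). At an unadjusted p below 0.05 there was 1 member on treatment (Myc, beside 9.53% of genes), 1 in recovery (Nfkbia, beside 16.7%) and 0 between treatment and recovery (beside 19% of genes). With liver JQ1 recovery libraries 2 and 3 left out, the fit called 358 genes on treatment, against 72 with them, and still 0 members. The libraries of JQ1 treatment and control overlapped for every member (12.9% of genes did not overlap), and so did those of JQ1 recovery and control (11.6%). Between JQ1 treatment and JQ1 recovery Btg2 and Mycn did not overlap, both lower on treatment (21.2% of genes). Both were higher in kidney than in liver controls on the TPM scale. The part of the kidney transcripts in JQ1 recovery libraries 2 and 3 in this was not tested.

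**Figure D4:**
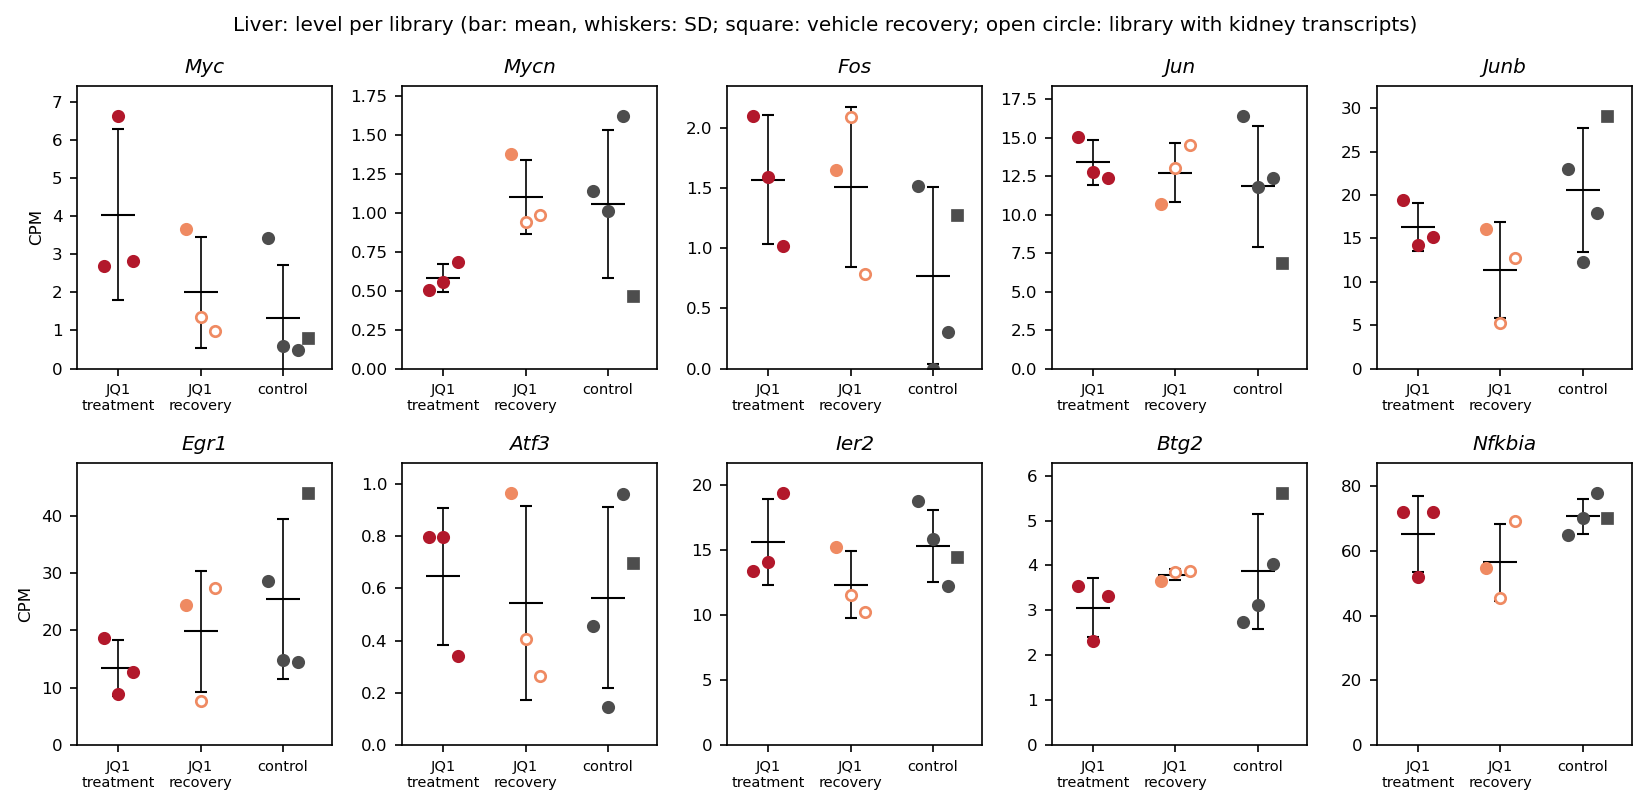
CPM per liver library of the 10 members in JQ1 treatment, JQ1 recovery and control (squares mark the vehicle recovery library, open circles the 2 JQ1 recovery libraries with kidney transcripts), with the mean and SD, cut at 0. The groups overlap for every member against control.

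Myc was at 2.68, 6.62 and 2.82 CPM in liver JQ1 treatment libraries, at 3.65, 1.35 and 0.986 in JQ1 recovery, and at 3.42, 0.579 and 0.480 in vehicle treatment with 0.811 in vehicle recovery. The JQ1 treatment libraries were above 3 of the 4 controls, and vehicle treatment library 1 fell among them. As in kidney the estimate was positive, 1.64 ± 0.70 on the log2 scale (edgeR adjusted p = 0.496). It was 2.67 ± 0.57 without vehicle treatment library 1 (edgeR adjusted p = 0.113) and 1.07 ± 0.77 without JQ1 treatment library 2 (edgeR adjusted p = 0.919). JQ1 recovery gave 0.62 ± 0.72 with all 3 libraries (edgeR adjusted p = 0.733) and 1.497 ± 0.98 with library 1 alone. Wherever liver JQ1 recovery is given without libraries 2 and 3 it is that single library, whose spread is assumed to be that of the other groups, and such values say little of JQ1 recovery.
Mycn was at 0.507, 0.558 and 0.683 CPM in JQ1 treatment libraries, at 1.38, 0.945 and 0.986 in JQ1 recovery, and at 1.14, 1.01 and 1.62 in vehicle treatment with 0.463 in vehicle recovery. The JQ1 treatment libraries were below the 3 controls of their own age and above the vehicle recovery library, and the log2 fold change was -0.85 ± 0.51 (edgeR adjusted p = 0.662).

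None of the AP-1 genes passed in liver either. Fos was at 2.10, 1.60 and 1.02 CPM in JQ1 treatment libraries, at 1.66, 2.09 and 0.788 in JQ1 recovery, and at 1.52, 0 and 0.300169 in vehicle treatment with 1.27 in vehicle recovery. The 0 in vehicle treatment library 2 allows up to 0.217 CPM (3 reads, counting error only), and the treatment difference was 1.02 ± 0.76 on the log2 scale (edgeR adjusted p = 0.756). Jun was at 15.1, 12.8 and 12.4 CPM in JQ1 treatment libraries, at 10.7, 13.0 and 14.5 in JQ1 recovery, and at 16.4, 11.8 and 12.4 in vehicle treatment with 6.84 in vehicle recovery. That is a log2 difference of 0.18 ± 0.23 on treatment (edgeR adjusted p = 0.874). Atf3 had 2 to 16 reads per library and overlapped between all groups (0.18 ± 0.68 on treatment, edgeR adjusted p = 0.968).
Junb was at 19.4, 14.2 and 15.2 CPM in liver JQ1 treatment libraries, at 16.1, 5.26 and 12.7 in JQ1 recovery, and at 23.0, 12.3 and 17.9 in vehicle treatment with 29.1 in vehicle recovery. Its lowest library was JQ1 recovery library 2, and the recovery estimate of -0.86 ± 0.38 (edgeR adjusted p = 0.303) was -0.36 ± 0.43 without libraries 2 and 3.

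Egr1 in liver spanned 5.72 times between its lowest and its highest library. It was at 18.7, 8.93 and 12.8 CPM in JQ1 treatment libraries, at 24.5, 7.69 and 27.3 in JQ1 recovery, and at 28.6, 14.9 and 14.5 in vehicle treatment with 44.0 in vehicle recovery. The estimate of -0.92 ± 0.57 on treatment did not pass (edgeR adjusted p = 0.706), and that of JQ1 recovery was -0.36 ± 0.56 with all libraries and -0.07 ± 0.75 without libraries 2 and 3. Ier2 was at 13.4, 14.0 and 19.4 CPM in JQ1 treatment libraries, at 15.2, 11.5 and 10.2 in JQ1 recovery, and at 18.8, 15.8 and 12.2 in vehicle treatment with 14.4 in vehicle recovery. Treatment and control shared a range (0.03 ± 0.19, edgeR adjusted p = 0.980).
Btg2 was at 3.55, 2.31 and 3.33 CPM in liver JQ1 treatment libraries, at 3.65, 3.85 and 3.88 in JQ1 recovery, and at 2.73, 3.11 and 4.02 in vehicle treatment with 5.62 in vehicle recovery (-0.34 ± 0.29 on treatment, edgeR adjusted p = 0.782). Nfkbia was at 72.2, 51.8 and 72.2 CPM in JQ1 treatment libraries, at 54.9, 45.4 and 69.3 in JQ1 recovery, and at 64.9, 70.1 and 78.0 in vehicle treatment with 70.2 in vehicle recovery. Unlike in kidney the treated livers overlapped with control (-0.11 ± 0.15, edgeR adjusted p = 0.878). The JQ1 recovery value of -0.33 ± 0.15 (edgeR adjusted p = 0.291) was -0.37 ± 0.17 without libraries 2 and 3.

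Whether JQ1 treatment acted differently on the members in kidney and liver was tested directly, and 0 of the 10 passed (edgeR, 0.169% of 17710 genes did, 0.0339% higher and 0.136% lower), with 0 at an unadjusted p below 0.05 (7.74% of genes) and 0 by DESeq2. For Nfkbia the kidney minus liver difference in the log2 treatment effect was -0.23 ± 0.18 (edgeR adjusted p = 0.863), for Myc -0.81 ± 0.82 (0.904) and for Egr1 0.91 ± 0.63 (0.821). The fall of Nfkbia in kidney is thus not shown to differ from liver.
Between the organs of control mice 5 members were called, beside 61.8% of all genes (32.1% higher and 29.6% lower in kidney). The median of all genes moved by over 0.1 with the scaling, at 0.06 with TMM factors and 0.91 with scaling to the library total alone. Jun was higher in kidney under both (log2 0.76 ± 0.24, edgeR adjusted p = 0.00979, and 1.62 with the total alone), and Junb and Ier2 were lower under both (-1.55 ± 0.27 and -1.98 ± 0.18, or -0.69 and -1.13). Egr1 was lower with TMM (-1.44 ± 0.41, edgeR adjusted p = 0.00629) and did not pass with the total alone (-0.58 ± 0.38, adjusted p = 0.173). Nfkbia turned round with the scaling, being -0.55 ± 0.12 with TMM factors and 0.31 ± 0.12 with the total alone. On the TPM scale Jun, Btg2, Mycn and Nfkbia did not overlap and were all higher in kidney, beside 83.3% of genes without overlap. Junb, Ier2 and Egr1 overlapped between the organs on that scale. The median of Junb was 5.63 TPM in kidney and 5.70 in liver, and that of Ier2 4.09 and 5.79.

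Genes around the members were described through 9 lists. Of 22 other immediate early transcription factors tested in kidney, 1 rose on treatment against control and 0 fell (list median -0.01, beside -0.01 over all genes). This was Bhlhe40, a clock-linked repressor, at 38.7 ± 5.29 CPM in JQ1 treatment and 23.2 ± 2.10 in control (SD, n = 3 and 4; log2 0.73 ± 0.11, edgeR adjusted p = 3.95e-04). Of 36 other immediate early regulators, most of them no transcription factors, 0 rose and 2 fell (median 0.03). Ccn2, the matricellular growth factor induced by YAP and TGF-beta, was at 27.4 ± 3.73 CPM in JQ1 treatment against 43.9 ± 6.04 in control (-0.68 ± 0.11, edgeR adjusted p = 0.0012), and Ier5 at 17.7 ± 2.75 against 24.9 ± 3.29 (-0.49 ± 0.12, edgeR adjusted p = 0.026). Without JQ1 treatment library 1 the fit called 491 of 17577 genes, against 709 of 17158 with it, so calls were fewer over all genes too. Ier5 did not pass in that fit.
In kidney 0 of 23 partners, antagonists and turnover factors passed on treatment (edgeR, list median 0.00). Of 50 MYC target genes of nucleolus, polyamines and growth 1 rose and 2 fell (median 0.03). Ddx21, a nucleolar helicase, was at 105 ± 4.21 CPM in JQ1 treatment and 87.5 ± 5.31 in control (0.27 ± 0.07). Shmt2, a mitochondrial enzyme of one-carbon metabolism, was at 70.1 ± 7.73 against 93.6 ± 11.9 CPM (-0.42 ± 0.10), and Ccnd1, the cyclin that starts G1, at 309 ± 21.3 against 388 ± 26.4 CPM (-0.33 ± 0.08). Without JQ1 treatment library 1 only Ccnd1 of the 3 passed.
Around Nfkbia, 1 of 18 NF-kB subunits, inhibitors and kinases fell in kidney on treatment (median -0.08). It was Nfkb2, which encodes p100 and p52, at 5.64 ± 0.941 CPM in JQ1 treatment and 8.87 ± 1.60 in control (-0.65 ± 0.18, edgeR adjusted p = 0.0477), and it did not pass without JQ1 treatment library 1. Of 18 NF-kB target genes 1 fell (median -0.16), the chemokine gene Ccl5, at 0.643 ± 0.286 against 3.19 ± 1.20 CPM (-2.33 ± 0.40, edgeR adjusted p = 0.00183). It also passed without that library. Of 17 p53 targets beside Btg2, 1 fell (median -0.15), the cell cycle inhibitor gene Cdkn1a. It was at 12.8 ± 0.867 against 20.7 ± 5.37 CPM (-0.69 ± 0.16, edgeR adjusted p = 0.0188). No p53 target passed without JQ1 treatment library 1, in the fit with fewer calls over all genes. None of 16 integrated stress response genes beside Atf3 (median 0.00) or of 19 SRF, TCF and CREB regulators (median -0.03) passed.
In kidney JQ1 recovery against control 0 genes of any of the 9 lists passed (edgeR). Between kidney JQ1 treatment and JQ1 recovery, which also differ in age, 4.91% of all genes were lower on treatment and 2.41% higher. Of the lists, 5 of 17 p53 targets were lower on treatment and 0 higher (median -0.18), 3 of 18 NF-kB targets were lower and 0 higher (-0.24), and 3 of 16 stress response genes were higher and 0 lower (0.00). Without JQ1 treatment library 1 these counts were 1, 2 and 2, in a fit that called 901 of 17577 genes. Of the MYC targets 2 were higher and 4 lower, of the immediate early regulators 2 and 2, of the other immediate early transcription factors 2 and 0, and of the NF-kB subunits 0 and 1. In the MYC network and the SRF, TCF and CREB lists none passed.
In liver 1 listed gene passed on treatment, Klf10, an immediate early zinc finger gene of the TGF-beta response, at 4.54 ± 0.668 CPM in JQ1 treatment and 10.6 ± 2.70 in control (-1.22 ± 0.23, edgeR adjusted p = 0.0367). It was 1 of 21 other immediate early transcription factors tested there (median -0.28, beside 0.00 over all genes). Klf10 also passed the test of the kidney minus liver difference. Without JQ1 recovery libraries 2 and 3 the fit called more genes in all on treatment against control, as given above. Klf10, Cebpb, Hk2 and Atf5 were then lower and Apex1 higher, Apex1 being a DNA repair enzyme. In liver JQ1 recovery 0 listed genes passed with all libraries (edgeR).

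**Figure D5:**
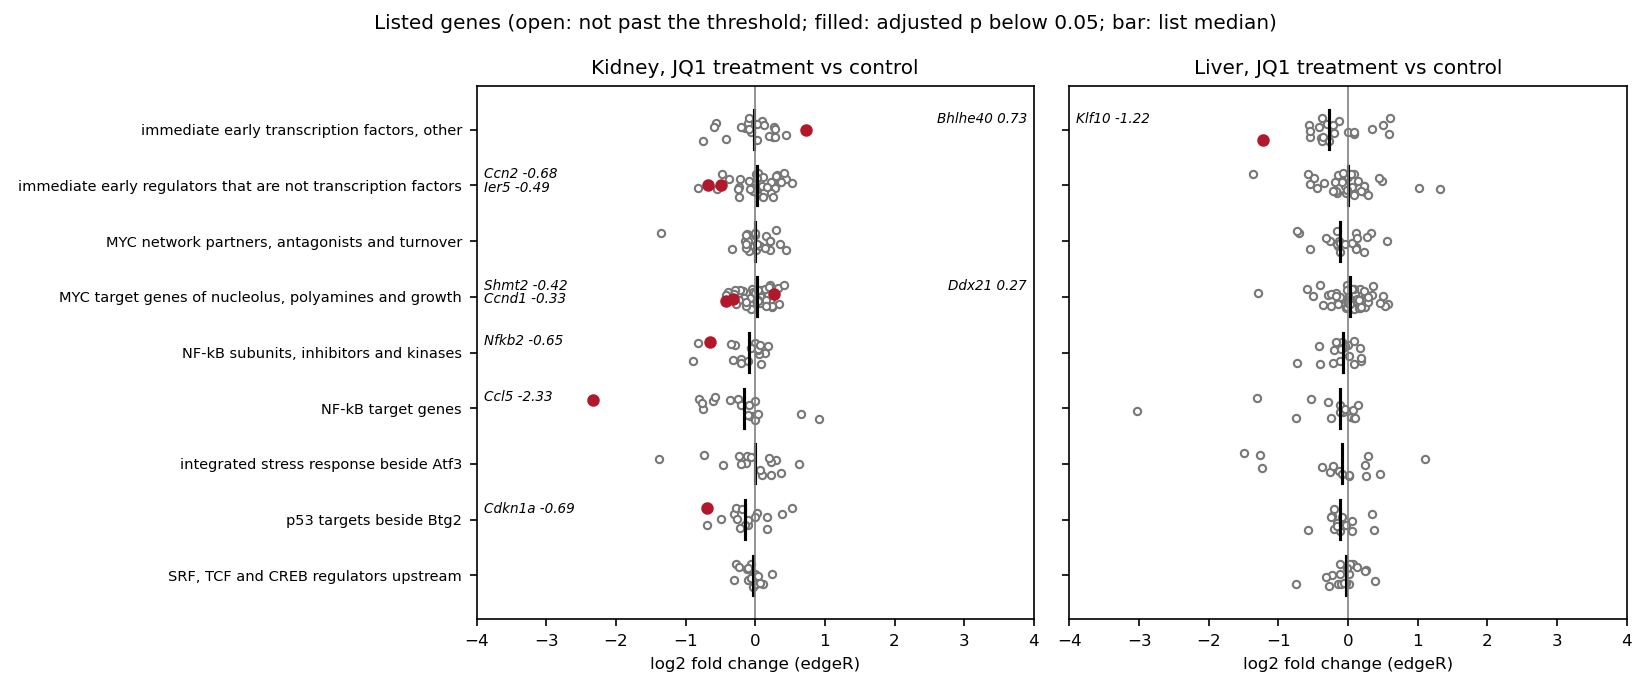
Log2 fold change (edgeR) of each listed gene for JQ1 treatment against control in kidney (left) and liver (right), by list, with a bar at the list median. Filled circles, named with their values, passed an adjusted p of 0.05, 9 in kidney and 1 in liver.

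Deviations from the group means, on a log2 scale with 0.1 CPM added, were compared for all 45 pairs in each organ over 10 libraries. With 864 permutations and 90 relations no pair standing alone could pass after adjustment, so that 0 calls say nothing on any single pair. By Pearson's r the highest was Junb with Egr1 in liver (Pearson r = 0.92, exact permutation p = 0.00694, Spearman rho = 0.89, exact permutation p = 0.0104, adjusted p = 0.354 for rho). Its r was 0.88 without the 2 libraries farthest from the median of Junb. Vehicle recovery was the highest liver library for both genes. The lowest for both was JQ1 recovery library 2, which held kidney transcripts. By Spearman's rho the highest was Junb with Atf3 in kidney (rho = 0.90, exact permutation p = 0.0197, and r = 0.76, exact permutation p = 0.0891), with r = 0.66 without the 2 farthest libraries. In kidney, Fos with Egr1 had r = 0.81 and rho = 0.79 (exact permutation p = 0.0266 and 0.0197), and r = 0.63 without the 2 farthest libraries. Vehicle recovery was the lowest kidney library for both of these genes.
By the same measure the genes most like each of 3 members were ranked among all genes with a mean of at least 1 CPM, over the 10 libraries of an organ, which share depth and dissection. For Nfkbia these were Gm128, Il18, Riok2, Mtrex and Klf16 in kidney (r 0.94 to 0.97) and Cib3, Mrps11, Tada2a, Pigs and Gpd1 in liver (0.92 to 0.98). For Myc they were Pigg, Gm48541, B230208H11Rik, C77080 and Slc22a5 in kidney (0.94 to 0.97) and Bok, Vmp1, Trp53, Rxrb and Sirt5 in liver (0.93 to 0.96). For Egr1 they included Rps6ka3, Tasor2, Gm38043 and Wdhd1 in kidney (0.96 to 0.97) and Grhpr, H2ax, Stx4a, Gm48878 and 1810019D21Rik in liver (0.93 to 0.98). All are among the highest of 14932 correlations in kidney or 13101 in liver. A ranking of so many genes over so few libraries picks out high r by itself. Whether these exceed chance was not tested.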

How the data were processed

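Polyadenylated RNA was sequenced by the authors, who trimmed reads with fastp 0.20.1 and quantified transcripts with Salmon 1.10.0. The deposited files hold, per transcript, the estimated count of reads and the TPM as the authors made them. Salmon shares reads between similar transcripts. The estimated counts were added up over the transcripts of each gene and then rounded to whole numbers. CPM were computed with the TMM factors of each organ's fit; marker sums and Kap used library totals alone. Genes were kept by filterByExpr (minimum count 10, minimum total 15) and tested with the quasi-likelihood F-test of edgeR 4.0.16 (R 4.3.3) over the 10 libraries of an organ, with Benjamini-Hochberg adjustment over 17158 genes in kidney and 14559 in liver. The organ contrasts used all 20 libraries. Alternatives included DESeq2 1.42.0. The fits were tested on simulated data.

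The members and lists were chosen with earlier results of these data known. Named genes were the 10 members, up to 4 called genes per direction, list and comparison with control, and the 5 genes most correlated with Myc, Egr1 and Nfkbia, of which 1 is not reported here. Sources do not state whether kidney and liver libraries with one number came from the same mouse, nor that libraries of a group came from separate mice, in which case p-values measure only the spread between libraries.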

Additional observations from a re-analysis of the deposited data

Results flagged for a closer look

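One value was picked out as a sample far from its group. Myc in liver vehicle treatment library 1 was at 3.418 CPM, while the other 3 liver controls were at 0.480 to 0.811, and its gap to the nearest was 0.887 of the group's range, above Dixon's 95% critical value for 4 libraries. Of 20 control groups examined (10 members in 2 organs) 1 was picked out, and chance picks out about 1 in 20.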

How the results depend on the processing

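The count of members past the threshold in kidney JQ1 treatment against control was 1, and 0 with counts rebuilt from TPM with length scaling, as the study's own methods did. Between kidney JQ1 treatment and JQ1 recovery it was 1, with 2 under no filter on low counts (Mycn added, adjusted p = 0.0166) and 2 with only the 2 groups in the fit (Jun added, 0.0157), and 0 with length scaling. Leaving out single libraries gave 0 to 1 in both comparisons. Nfkbia had an adjusted p of 0.0655 and Ier2 of 0.0631 with length scaling. The causes were not tested. For kidney against liver in control mice, Nfkbia was 0.3059 with scaling to the library total alone, a setting chosen after seeing the data like the leaving out of liver JQ1 recovery libraries 2 and 3, where Egr1 no longer passed and Btg2 did, so that 5 members passed under either scaling. Btg2 also passed there without the liver vehicle recovery library (0.48). Of the values in the other 5 comparisons, none crossed the threshold under any alternative run. With the replicate number as a replicate block, the counts were 1 and 1 in the 2 kidney comparisons that had calls and 0 in the others with control or recovery. Deviations of libraries sharing a number correlated at -0.132 to 0.1, and those of libraries with other numbers at -0.0928 to 0.156. With so few libraries per group, such values cannot tell whether a shared number means the same mouse. Scarce members (Myc, Mycn, Fos and Atf3, with 0 to 83 reads per library) limit what could be seen.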
